A study of Rattus norvegicus with 11 samples.

Results

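The superoxide dismutases, catalase and their partner enzymes were examined in the heart ventricle of old and young rats. The members were 9 genes: Sod1, Sod2, Sod3, Cat, Gpx1, Hmox1, Hmox2, Nqo1 and Gclc. Every probe set that the platform annotation assigns to 1 of these genes alone was taken, which gave 19 of the 8799 probe sets on the array. Each probe set summarises several short probes as a single reading. The study hybridised ventricle RNA of Fischer-344 rats, an inbred strain used in ageing research, to 11 Affymetrix expression arrays. The old group held 6 arrays from rats aged 22 months and the young group 5 arrays from rats aged 4 months, and its question was which cardiac transcripts differ with age. No treatment and no altered gene is named in the labels for either group. The labels do not say whether each array is a separate animal or a pool, nor do they give the sex, so the p-values reflect only how these samples scatter, and that scatter may be technical.

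Superoxide is a reactive by-product of respiration, and heart muscle, which respires intensely, makes much of it in its mitochondria. Superoxide dismutases turn it into hydrogen peroxide, and catalase and glutathione peroxidase then break the peroxide down. Glutathione, the small peptide that the peroxidase consumes, is made in a pathway whose first step is run by glutamate-cysteine ligase. Heme oxygenases split heme, a pro-oxidant when free, into biliverdin, carbon monoxide and iron. NQO1 reduces quinones without leaving a radical, and its gene is a classic target of the transcription factor NRF2, as are Hmox1 and Gclc.

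Values are the deposited intensities, which are linear and had been scaled to a common level on each array, with trimmed means between 500.47 and 500.96. For the tests, every intensity below 47.4, the 20th percentile of the table, was set to that floor and log2 was taken, so the value of a probe set with arrays under the floor depends on it. Old was compared with young in limma over all 5244 probe sets whose mean log2 value reached the 40th percentile, and p-values were adjusted over all of them by the method of Benjamini and Hochberg. Of the 19 member probe sets 14 passed this filter, at least 1 for every gene, and the other 5 are described without a test. Heart muscle markers checked the tissue: all 10 of 12 that the array holds were tested, with mean log2 values from 8.53 for Ryr2 to 16.67 for Actc1. The bacterial spike-in controls, transcripts added to each sample, were bright on 5 arrays (old replicates 3 to 6 and young replicate 4) and dim on the other 6. Their mean log2 intensity was 9.55 to 10.20 on the dim arrays, 11.97 on young replicate 4 and 13.19 to 15.24 on the bright old ones. The classes were cut at the largest gap, 1.76, just below young replicate 4. Old replicates 3 and 6, at 13.54 and 15.24, lay almost as far apart, so the placing of young replicate 4 is not clear-cut. The spike-in class therefore overlaps with age, since 4 of 6 old arrays and 1 of 5 young arrays were bright. Old replicates 3 and 4 also had GAPDH 3' over 5' log2 ratios of 3.39 and 4.09, against 0.07 to 0.77 on the other arrays.

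No member differed between old and young after adjustment. In limma 0 of 14 tested probe sets passed an adjusted p of 0.05, as did 0% of all probe sets tested, and the members' adjusted p ran from 0.560 to 0.993. At an unadjusted p under 0.05 there was 1 of 14, lower in old, against 4.12% of all probe sets in that direction. None of the 14 had old and young arrays that did not overlap, against 0.973% of all. The old mean was the lower one for 9 of 14 member probe sets, against 50.6% of all tested probe sets. The median difference of the 14 was -0.34 on the log2 scale, against -0.01 over all. Sod1, Gpx1 and Hmox2 entered with more than 1 probe set each, all lower in old, so the 14 are not independent. That of Sod2 was lower too. The tested probe sets of Sod3, Cat, Nqo1 and Gclc had the higher mean in old, and those of Hmox1 were split. Leaving out old replicates 3 and 4 for their high GAPDH ratios, the old mean was the lower one for 10 of 14. It was so for 8 of 14 with the class of the spike-ins as a block. Among the dim arrays it was so for 10 of 14, and among the bright ones, which hold 1 young array, for 7 of 14. The median difference of all tested probe sets was 0.07 among the dim and -0.14 among the bright arrays. Without single arrays the count was 8 to 11. Under median centring, which moved the median of all to -0.29, it was 11. The number of arrays limits what could be seen: in data simulated with the real means and spreads over 5244 probe sets, limma called 5.6% of the 2-fold changes, 54.4% of the 4-fold ones and 83.2% of the 8-fold ones, with no floor applied.

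**Figure D1:**
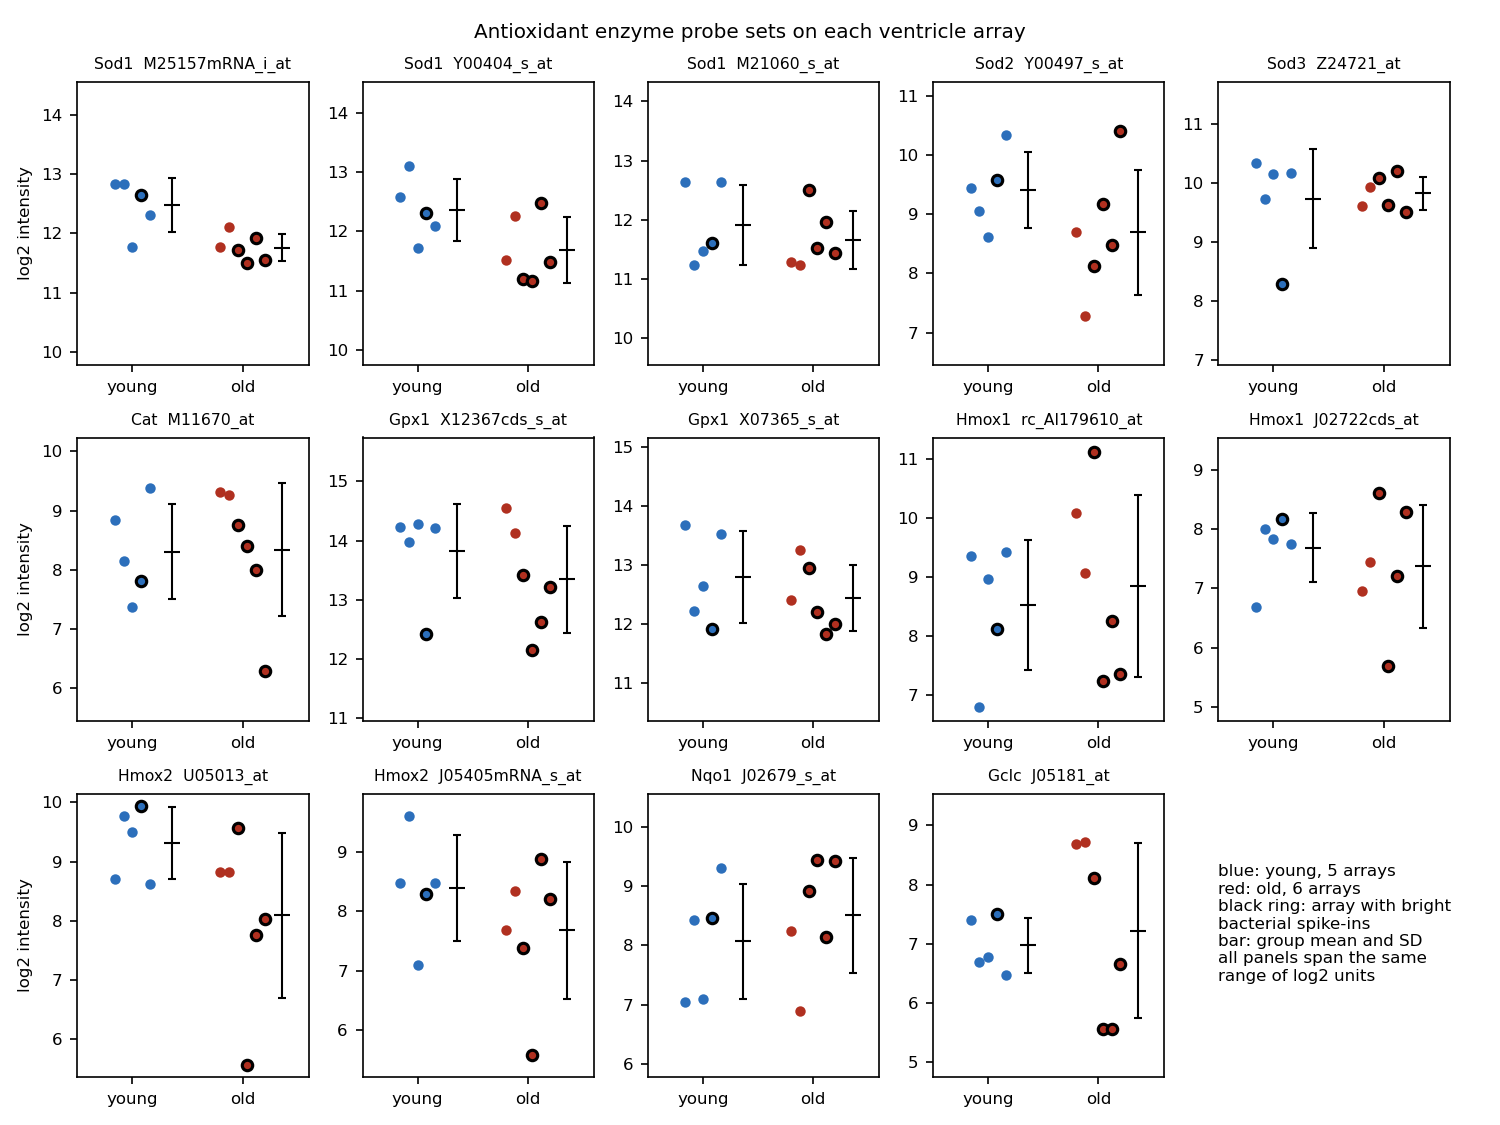
Log2 intensity of each of the 14 tested antioxidant probe sets on the 5 young (blue) and 6 old (red) arrays, with a black ring on the 5 arrays of bright spike-ins and bars for group mean and SD. Old and young overlap in every panel, and for Gpx1 (X12367cds_s_at) the ringed arrays lie below all others whatever their age.

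Sod1 encodes the cytosolic copper-zinc dismutase and was read by 3 probe sets, all bright. The probe set M25157mRNA_i_at read 2888 at the lowest, 3427 at the median and 4414 at the highest of the old arrays, and 7327, 7343, 3488.5, 6396 and 5108 on young replicates 1 to 5. On the log2 scale each of the 6 old arrays was under the mean of the young ones, which holds for 4.84% of all tested probe sets, but young replicate 3 sat inside the old range, so the groups overlapped. Mean log2 intensity in old was 11.76 ± 0.23 (SD, n = 6), compared with 12.48 ± 0.45 (SD, n = 5) for the young arrays. The difference of -0.72 ± 0.28 (SE), which is 0.606-fold, had a limma p of 0.0186 and an adjusted p of 0.560, with a 95% interval from -1.31 to -0.13. This was the smallest p among the members.

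The other 2 Sod1 probe sets differed from each other in how they ordered the arrays. Y00404_s_at ran from 2299.5 through a median of 2897 to 5746 in old, against 6112, 8806, 3391, 5112 and 4349 on young replicates 1 to 5. Its old arrays were low except replicates 2 and 5, which stood among the young ones. The difference was -0.68 ± 0.33 (SE), with a limma p of 0.0538 and an adjusted p of 0.661. M21060_s_at ran from 2404 through 2868 to 5815 in old, and read 6402, 2420.5, 2825, 3103 and 6402 on young replicates 1 to 5. Here 2 young arrays were high and the other 3 lay within the old range, and the difference was -0.26 ± 0.34 (SE, limma adjusted p = 0.877). It ran from -0.43 without young replicate 2 to -0.077 without young replicate 1, and was -0.74 among the dim arrays. The ending _s_at marks a probe set whose probes can match more than 1 related transcript, so neither of these 2 need read Sod1 alone. The same limit holds for the tested probe sets of Sod2, Gpx1 and Nqo1, and for J05405mRNA_s_at of Hmox2, which share the ending.

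The first 2 Sod1 probe sets ranked the arrays alike, and the last did not. Between M25157mRNA_i_at and Y00404_s_at, Pearson's r over 11 arrays was 0.87 (permutation p = 7.40e-04, adjusted p = 0.00444 over 6 pairs of probe sets of 1 member gene) and Spearman's rho 0.93 (permutation p = 1.60e-04, adjusted p = 9.60e-04). Without the 2 arrays farthest from the median, young replicates 1 and 2, r was 0.77. M21060_s_at correlated with them at r = 0.22 (permutation p = 0.505) and r = -0.0035 (permutation p = 0.992), with rho 0.11 (permutation p = 0.755) and 0.036 (permutation p = 0.925), and every one of these had an adjusted p of 0.707 or more. Leaving out the 2 farthest arrays gave r = 0.21 and 0.17. Over all genes with several tested probe sets, 1403 such pairs had a median r of 0.21, and the middle 50% of them ran from -0.058 to 0.50.

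Sod2, the manganese dismutase of the mitochondrial matrix, was read by Y00497_s_at alone. Its old arrays ran from 155 through a median of 386 to 1364, and young replicates 1 to 5 read 695, 532, 391, 767 and 1298. Old replicate 6 was the highest of all 11 arrays and old replicate 2 the lowest, so the old group spanned the whole young range. On the log2 scale the old mean was 8.69 ± 1.06 (SD, n = 6), the young mean 9.41 ± 0.65 (SD, n = 5) and the difference -0.71 ± 0.51 (SE, limma adjusted p = 0.761). The difference was below 0 under all 25 alternative settings, from -1.38 among the dim arrays to -0.43 without old replicate 2.

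Sod3 encodes the secreted dismutase, which lies on the outer surface of vessels and cells. Z24721_at ran from 731 through 883 to 1177 in old, and read 1287, 845, 1136, 315 and 1151 on young replicates 1 to 5. The 6 old arrays were tightly grouped, and young replicate 4 was the lowest of all arrays. The difference was 0.09 ± 0.39 (SE, limma adjusted p = 0.971), and it was -0.27 without young replicate 4. The second Sod3 probe set, X68041cds_s_at, was too dim to be tested, with 34.2 to 137 in old, 63.3 to 122 in young and a difference of -0.31.

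Cat encodes catalase, the peroxisomal enzyme that splits hydrogen peroxide into water and oxygen. M11670_at ran from 78.5 through 386 to 636 in old, and read 459.5, 283, 165, 225 and 666 on young replicates 1 to 5. High and low arrays occurred in both groups, with old replicate 6 the lowest. The difference of 0.03 ± 0.58 (SE, limma adjusted p = 0.993) had a 95% interval from -1.17 to 1.23, so it does not show equal levels. It was below 0 under 9 of 25 alternatives, 2 of them scalings under which it was not below the median of all probe sets. Among the dim arrays it was 0.85 ± 0.57 (SE, limma adjusted p = 0.795). It was 0.55 ± 0.60 (SE, limma adjusted p = 0.965) when the model held the spike-in class. With age in the model, the bright arrays differed from the dim ones by -1.12 ± 0.60 (SE, limma adjusted p = 0.451), and the classes overlapped. The other 2 catalase probe sets were not tested. The mean of rc_AA926149_g_at, 6.99 on the log2 scale, fell just short of the filter limit of 6.9996, and its intensities ran from 4.5 to 374.5 in old and from 2.2 to 683 in young. Its medians were 46.3 and 292, and its means differed by -1.16 on the log2 scale, with 3 of 6 old arrays and 1 of 5 young ones under the floor. Those of rc_AA926149_at ran from 31.7 to 171 in old and from 71.3 to 165 in young, a difference of -0.31.

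Gpx1, glutathione peroxidase 1, reduces peroxide with glutathione and was among the brighter genes of the array through 2 of its 3 probe sets. X12367cds_s_at ran from 4516 through 10192 to 23870.1 in old, and read 19116.5, 16013, 19838, 5456 and 18890.3 on young replicates 1 to 5. Young replicate 4 stood apart from the other young arrays. Old and young differed by -0.47 ± 0.43 (SE, limma adjusted p = 0.817), by -0.83 without young replicate 4 and by -0.23 without old replicate 4. X07365_s_at ran from 3655 through 5084 to 9809.5 in old, and read 13052, 4792, 6382, 3869 and 11711 on young replicates 1 to 5, a difference of -0.35 ± 0.36 (SE, limma adjusted p = 0.845) that ran from -0.57 to -0.13 without single arrays. Across the 11 arrays the 2 probe sets had r = 0.64 (permutation p = 0.0356, adjusted p = 0.107) and rho = 0.68 (permutation p = 0.0248, adjusted p = 0.0745), and r = 0.58 without the 2 farthest arrays. The third, M21210_i_at, read 12.9 to 30.4 and lay under the floor on all 11 arrays.

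The level of Gpx1 separated the arrays by spike-in class, old and young alike. On X12367cds_s_at the 5 arrays with bright spike-ins, 4 old and 1 young, read 4516 to 10895, and the 6 dim ones, 2 old and 4 young, read 16013 to 23870.1. The classes did not overlap, as was the case, with bright below dim, for 2.06% of all tested probe sets. With age in the model, the bright arrays were lower by -1.59 ± 0.31 (SE) on the log2 scale, with a limma adjusted p of 0.0152. In that direction 0.801% of all probe sets passed, and among the 14 member probe sets X12367cds_s_at was the only one. In the other direction it was 0 of 14, against 0.42% of all. Without old replicate 1, old replicate 2 or young replicate 4 the call was lost (limma adjusted p = 0.141, 0.0711 and 0.140), while the difference stayed between -1.46 and -1.73 whichever array was left out. The class and its comparison were chosen after the data were seen.

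Once the class was a block, the age difference of neither Gpx1 probe set was below 0. It was 0.17 among the dim arrays and 0.43 among the bright ones, which hold 1 young array, for X12367cds_s_at, and 0.27 ± 0.31 (SE) with the class as a block (limma adjusted p = 0.973). For X07365_s_at it was -0.18 among the dim and 0.33 among the bright arrays, and 0.011 ± 0.37 (SE) with the block (limma adjusted p = 0.998). Its bright arrays differed from the dim ones by -0.78 ± 0.37 (SE, limma adjusted p = 0.365), and the classes overlapped. The 2 Sod1 probe sets that ranked the arrays alike kept a difference of -0.68 ± 0.31 and -0.58 ± 0.37 (SE) with the block, and neither passed (limma adjusted p = 0.938 for each).

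**Figure D2:**
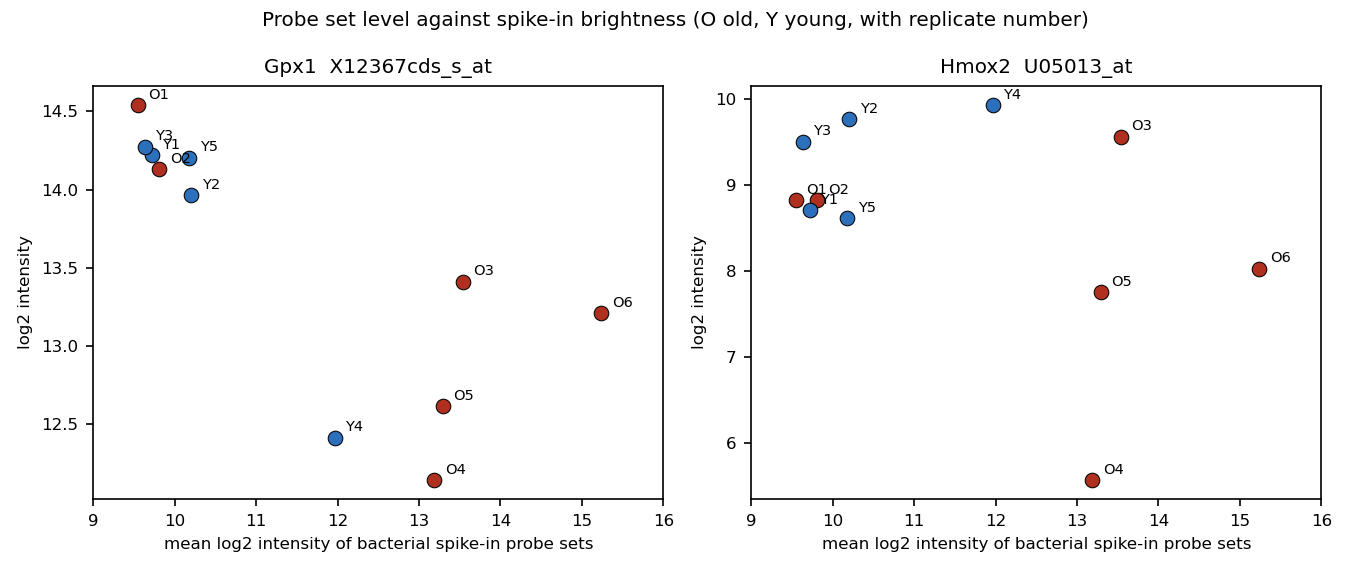
Log2 intensity of Gpx1 (X12367cds_s_at, left) and Hmox2 (U05013_at, right) against the mean log2 intensity of the bacterial spike-in probe sets, 1 point per array. The 5 bright arrays lie below the 6 dim ones for Gpx1, and for Hmox2 young replicate 4 and old replicate 3 are as high as the dim arrays.

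Gclc, the catalytic subunit of glutamate-cysteine ligase, was near the lower limit of the tested range. J05181_at ran from 9.4 through 189.9 to 420 in old, and read 169.9, 103, 109, 182 and 89.2 on young replicates 1 to 5. Old replicates 1 to 3 lay above every young array and old replicates 4 and 5 under the floor, while old replicate 6, at 101.5, was within the young range. The log2 SD was 1.48 (n = 6) in old and 0.46 (n = 5) in young, and the difference of 0.25 ± 0.68 (SE, limma adjusted p = 0.949) lay within this spread. It was -0.062 with the floor at the 10th percentile and 0.50 at the 30th, 1.86 among the dim arrays and -1.03 among the bright ones, which hold 1 young array.

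Nqo1 was read by J02679_s_at, from 118.5 through 395 to 698 in old, and at 131, 345, 137, 352.5 and 634.5 on young replicates 1 to 5. Of 6 old arrays 5 lay above the young mean, and old replicate 2 was the lowest of all. The difference of 0.45 ± 0.57 (SE, limma adjusted p = 0.869) was -0.054 ± 0.60 once the class was a block, and the bright arrays read higher by 1.07 ± 0.60 (SE, limma adjusted p = 0.472). The other Nqo1 probe set, M58495mRNA_at, was not tested, with 5 of 6 old and 2 of 5 young arrays under the floor and a difference of -0.59.

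Heme oxygenases varied widely among the old arrays. Hmox1, the form induced by stress, ran on rc_AI179610_at from 151 through 422 to 2216.5 in old, and read 653, 112, 499.9, 277 and 689 on young replicates 1 to 5. Old replicate 3 was more than 3 times as bright as any young array, while old replicates 4 and 6 were near the lowest young one. The difference of 0.32 ± 0.67 (SE, limma adjusted p = 0.931) turned to -0.13 without old replicate 3. J02722cds_at ran from 51.7 through 162 to 391.7 in old, and read 103, 257, 229.6, 290 and 215 on young replicates 1 to 5, a difference of -0.32 ± 0.59 (SE, limma adjusted p = 0.912). The 2 probe sets gave opposite directions and ranked the arrays differently, with r = 0.18 (permutation p = 0.589, adjusted p = 0.707), rho = -0.018 (permutation p = 0.968, adjusted p = 0.968) and r = 0.033 without the 2 farthest arrays.

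Macrophages, which take up red cells, also use Hmox1, and the sum of the 8 macrophage markers on the array was 8080 to 42203 in old and 7030 to 9363 in young, counted as intensity. The sum of 4 red cell markers was 19215 to 229932 in old and 2710 to 112370 in young. No marker of these lists was at 0, and 5 of 8 and 4 of 4 had the higher mean in old. The filter for testing was passed by 6 of the 8 macrophage markers and by all 4 red cell ones. Of the endothelial markers 4 of 4 had the lower mean in old (median difference -0.61), and their sum was 182.2 to 1404 in old and 600.4 to 1333 in young. Only 2 of these 4 passed the filter. Of the smooth muscle markers 4 of 5 had the higher mean in old (median 0.99), with a sum of 6717 to 20682 in old and 8576 to 15893 in young. That sum follows Des most, with a mean log2 value of 12.69 against 7.78 to 10.18 for the others. Des need not come from smooth muscle alone. Of the fibroblast, fat cell and liver markers, 4 of 7, 3 of 6 and 2 of 5 had the higher mean in old. Red cells also hold catalase, Sod1 and Gpx1, and the part of these cell types in the values was not tested. In bulk tissue fewer cells of a type and less RNA per cell cannot be told apart.

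Hmox2, the constitutive heme oxygenase, had the largest difference of the tested members. U05013_at ran from 30.4 through 358 to 758 in old, and read 419, 874, 728, 979 and 392.1 on young replicates 1 to 5. Old replicates 4, 5 and 6 lay below every young array and the other 3 within the young range. The old arrays had a mean log2 intensity of 8.10 ± 1.40 (SD, n = 6), the young arrays one of 9.31 ± 0.61 (SD, n = 5). The difference of -1.21 ± 0.59 (SE), which is 0.431-fold, had a limma p of 0.0552 and an adjusted p of 0.661, with a 95% interval from -2.45 to 0.03. Without old replicate 4, which was under the floor, it was -0.71, and among the dim arrays -0.32.

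The second Hmox2 probe set, J05405mRNA_s_at, ran from 44.2 through 251 to 475 in old, and read 358, 787, 136, 313.5 and 356 on young replicates 1 to 5. Its difference of -0.71 ± 0.61 (SE, limma adjusted p = 0.805) was -0.29 without old replicate 4. Between the 2 probe sets r was 0.57 (permutation p = 0.0851, adjusted p = 0.170), but rho was 0.082 (permutation p = 0.819, adjusted p = 0.968) and r was -0.20 without old replicate 4 and young replicate 4, so the relation rests on those arrays.

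**Figure D3:**
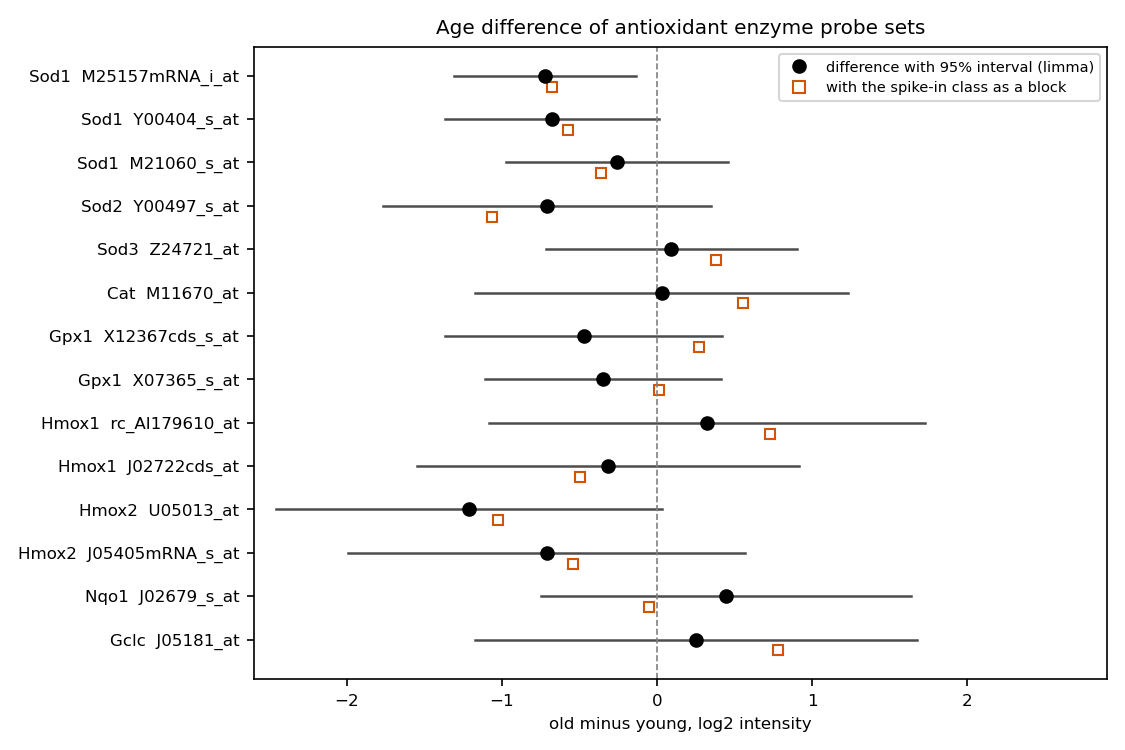
Difference of old minus young in log2 intensity for the 14 tested probe sets, as points with 95% intervals from limma, and as open squares the same difference once the spike-in class is a block. The interval of 1 Sod1 probe set excludes 0 before adjustment, and the squares of both Gpx1 probe sets and of Nqo1 lie on the other side of 0 from their points.

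Old replicate 4 was the lowest of all 11 arrays for 7 of 14 member probe sets, against 13.8% of all tested probe sets. These were 2 probe sets of Sod1, 1 each of Gpx1, Hmox1 and Gclc, and 2 of Hmox2. It had the highest GAPDH ratio of the arrays, and the part of RNA quality in these values was not tested. The members were no more variable than other genes: the median SD within groups was 0.88 on the log2 scale against 0.90 over all tested probe sets. The SD was larger in old for 9 of 14 member probe sets, and for 68.2% of all probe sets.

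For each member the probe sets of other genes that followed it most closely over the 11 arrays were sought by Pearson's r among 4310 tested probe sets with 1 symbol. Such best matches are high by choice and are given as a description. No array was left out, so an r can rest on 1 extreme array. Old replicate 4 was such an array for Hmox2 (U05013_at) and young replicate 4 for Sod3. For Gpx1 (X12367cds_s_at) an r can follow the spike-in class. The part of these arrays in r was not tested. Nearest to Sod1 (M25157mRNA_i_at) were Fxyd1, a regulator of the sodium pump (r = 0.86), Fdft1, the squalene synthase (r = 0.85), and Gata4, a cardiac transcription factor (r = 0.84). Dnaja2, a co-chaperone, Ctdsp1, a phosphatase, and Ndufb6 of respiratory complex I came closest to Sod2 (r = 0.87, 0.86 and 0.83). For Sod3 they were Nfia, Thra and Ube2b (r = 0.96, 0.89 and 0.89), and for catalase Grpel1, the glucose transporter Slc2a1 and Ndrg2 (r = 0.93, 0.92 and 0.92). Gpx1 (X12367cds_s_at) was matched by Ola1, by Pdk4, the kinase that restrains pyruvate oxidation, and by Nptn (r = 0.96, 0.94 and 0.93). Hmox1 (rc_AI179610_at) went with Dusp6, a phosphatase of MAP kinases, Hmgb1 and Rrad (r = 0.90, 0.88 and 0.87). A2m, Ly6al and Ier3 followed Hmox2 (U05013_at; r = 0.93, 0.92 and 0.92), Lipa, Chrnb2 and Mrpl44 followed Nqo1 (r = 0.87, 0.86 and 0.85), and Psmb4, Tsr2 and Kcne1 followed Gclc (r = 0.84, 0.83 and 0.81). The symbols are those of the platform annotation.

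Other genes of oxidant handling were taken from 7 lists, with 1 probe set per gene, the one with the highest mean. Of their 68 genes 43 were on the array and 37 were tested. In limma 0 of 37 passed after adjustment, 20 were higher and 17 lower in old, and the median difference was 0.12 against -0.01 over all tested probe sets. For some genes other tested probe sets went the opposite way, so the counts of every list depend on the probe set taken. At an unadjusted p under 0.05 there were 3 higher and 1 lower in old, against 3.39% and 4.12% of all. Peroxidases and peroxiredoxins had the lower mean in old for 4 of 6 genes, with a median of -0.29. Prdx6, counted as higher at 0.20, had other tested probe sets at -0.45 and -0.49. Prdx2, a cytosolic peroxiredoxin abundant in red cells and the list's brightest gene, differed by -0.38 ± 0.32 (SE, limma adjusted p = 0.794).

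Thioredoxin system genes went both ways through the probe sets taken. Txnrd1, the cytosolic thioredoxin reductase, ranged from 8.78 through a median of 9.72 to 10.62 on the log2 scale in old, and read 9.97, 8.34, 8.55, 8.72 and 8.35 on young replicates 1 to 5. Of 6 old arrays 5 lay above the young mean, and young replicate 1 was at the old level. The difference was 0.91 ± 0.42 (SE), with a limma p of 0.0422 and an adjusted p of 0.642, but the other Txnrd1 probe set differed by -0.45 ± 0.63. Txn2, the mitochondrial thioredoxin and the brightest of this list, differed by -0.43 ± 0.27 (SE, limma adjusted p = 0.729), with 6 of 6 old arrays below the young mean. In this list 2 of 4 genes were higher and 2 lower, with a median of 0.02. The 2 higher ones, Txnrd1 and Txnip, each had another tested probe set that was lower in old, at -0.45 and -1.04. The other probe set of Txnrd2, at -0.65, was lower like the one taken. The count thus depends on the probe set taken for each gene.

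In glutathione synthesis and NADPH supply, 5 of 7 genes had the higher mean in old, with a median of 0.60. Me1, counted as higher at 0.84, had other tested probe sets at -0.27, -0.09 and 0.02. Gss, the glutathione synthetase that completes the peptide, went the other way. It ranged from 7.21 through 8.87 to 9.68 on the log2 scale in old, and read 9.48, 10.36, 9.77, 9.34 and 9.26 on young replicates 1 to 5. Old replicates 4 and 5 were at the young level and the other 4 below it, and the difference was -1.03 ± 0.48 (SE), with a limma p of 0.0435 and an adjusted p of 0.648. Idh2, the mitochondrial NADPH-forming isocitrate dehydrogenase and the brightest of the list, differed by -0.036 ± 0.31 (SE, limma adjusted p = 0.982), and its other probe set by -0.51 ± 0.35.

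Sources of superoxide and peroxide had the higher mean in old for 5 of 8 genes, with a median of 0.43. Maoa, a monoamine oxidase that releases peroxide, ranged from 9.17 through 11.96 to 13.94 on the log2 scale in old, and read 10.21, 9.70, 9.73, 9.47 and 10.87 on young replicates 1 to 5. Old replicate 5 lay below all young arrays and the other 5 above them. The difference was 1.86 ± 0.58 (SE), with a limma p of 0.00472 and an adjusted p of 0.537, and the other Maoa probe set differed by 2.37 ± 0.74. Both Maoa probe sets carry the ending _s_at, so neither need read Maoa alone. Xdh, the xanthine dehydrogenase, ranged from 9.29 through 9.93 to 11.001 in old, and read 8.86, 9.09, 9.49, 9.63 and 9.11 on young replicates 1 to 5. All 6 old arrays lay above the young mean, and the difference was 0.81 ± 0.39 (SE), with a limma p of 0.0498 and an adjusted p of 0.661.

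In the heme, iron and metal list 5 of 7 genes had the higher mean in old, with a median of 0.46. Its brightest gene, Alas1, which starts heme synthesis, differed by -0.051 ± 0.32 (SE, limma adjusted p = 0.977), and its other probe set by 0.017 ± 0.35. Of the regulators of the NRF2 pathway only Nfe2l2, which encodes NRF2, and Mafk, a binding partner, were tested, and Mafk differed by 0.15 ± 0.41 (SE, limma adjusted p = 0.949). Of the last list, Ucp2, Ucp3 and Nnt were tested and all 3 had the lower mean in old, with a median of -0.31. Nnt, which makes NADPH across the inner mitochondrial membrane, was the brightest, with -0.19 ± 0.41 (SE, limma adjusted p = 0.936).

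**Figure D4:**
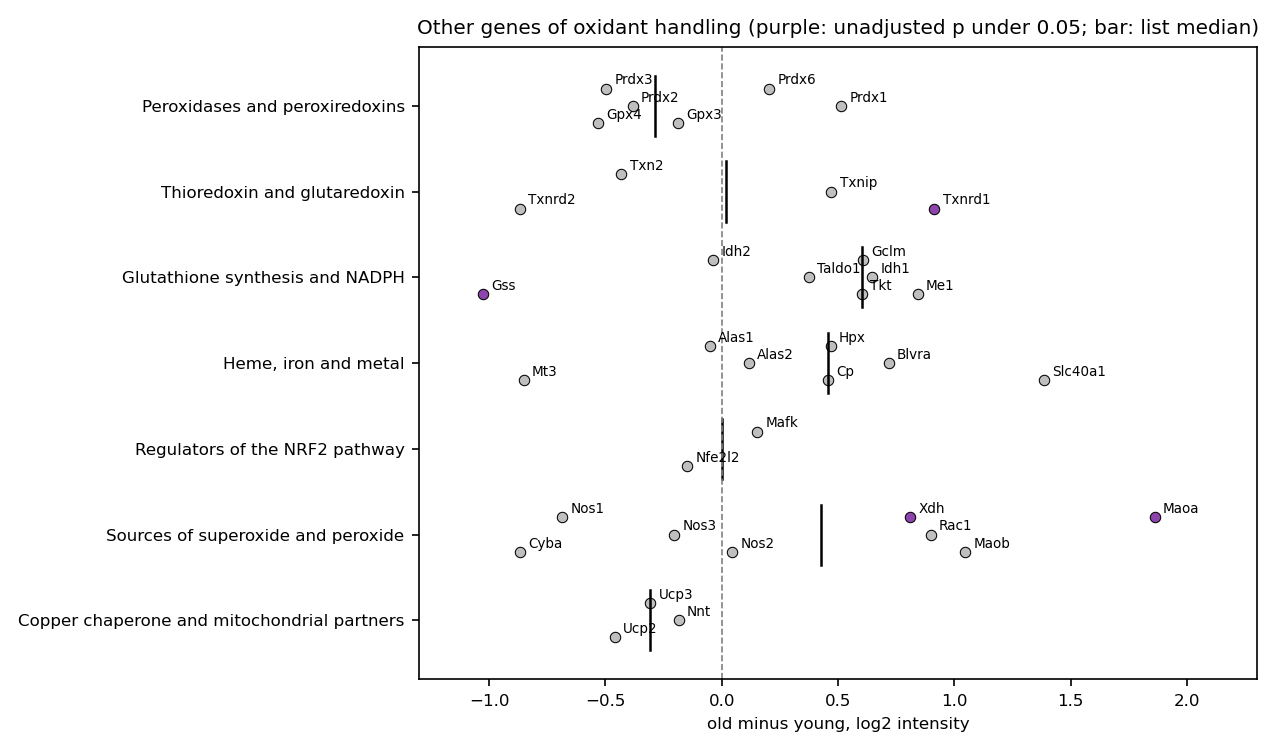
Difference of old minus young in log2 intensity for the 37 tested genes of the other oxidant handling lists, 1 point per gene, with a bar at each list's median. Maoa, Txnrd1, Xdh and Gss, in purple, had an unadjusted p under 0.05, and none passed after adjustment.

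NRF2 binds an antioxidant response element, and its core motif, TGACNNNGC, was sought on both strands in promoter windows from 250 bases before to 50 after each gene start (RefSeq, GRCr8). The table of windows matched 7 of the 9 genes by symbol. No window was found for Sod3 or Hmox1, so these were not searched. The motif was in the windows of 2 of the 7 genes searched, which had 8 windows together. It was in 12.1% of all 33469 windows, a share that counts windows and not genes. Nqo1 and Gclc were searched and had no match. Elements farther from the gene start than the window lay outside the search. Both matches are printed on the strand of the gene, with the motif in capitals, to show how short the match is. It lies on the opposite strand in each, 35 bases before the start of Sod2 and 95 before that of Hmox2. A match is no evidence of binding.
Sod2, chr1:50050185-50050213, minus strand: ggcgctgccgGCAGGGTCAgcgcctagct
Hmox2, chr10:11337689-11337717, minus strand: gtcttggaagGCAGTGTCAgcttggccag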

How the data were processed

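The deposited table holds 1 linear intensity per probe set and array, from 0.2 to 307756, in the authors' own scaling. How the authors computed them, with which software and background correction, is not given in the sources used here. Tests left out the 59 control probe sets. limma 3.58.1 under R 4.3.3 fitted lmFit and eBayes with a mean-variance trend, and the number of arrays limits the precision, with a median standard error of 0.56 per log2 difference. Other figures were computed with Python 3.11.15, and correlations between probe sets of a gene were tested with 100000 permutations, two-sided. Gene names are those of the platform annotation: 7006 probe sets had a single symbol, 308 had several and 1426 had none. On simulated data, in 5 runs with 200 changed probe sets each, 25 of 621 calls were false.

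All member probe sets are named. Of the other lists, genes at an unadjusted p under 0.05 and the brightest gene of each are named, and for each member the 3 best correlated genes. The members and lists were chosen with earlier results of these data known. The alternatives changed the floor, the filter, the normalization or the variance model, weighted or left out arrays, or added the replicate number or the spike-in class as a block.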

Additional observations from a re-analysis of the deposited data

Results flagged for a closer look

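In 2 of the 48 groups tested, 1 array stood far from the rest, where chance gives about 1 in 20. For Gpx1 (X12367cds_s_at), young replicate 4 was the lowest young array at 12.41 on the log2 scale, against 13.97 to 14.28 in the other 4. Young replicate 4 was the only young array with bright spike-ins, and its value lay within those of the bright old arrays. For Txnrd1 (rc_AA891286_at), young replicate 1 was the highest young array at 9.97, against 8.34 to 8.72 in the other 4.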

How the results depend on the processing

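The calls hardly moved with the processing: in limma the member probe sets gave 0 calls under the 25 alternatives, of which 12 of the 14 could be fitted in all, Hmox1 (J02722cds_at) in 24 and Gclc in 23, since the others filtered them out. Over all probe sets there were 1 call among the dim arrays alone and 5 among the bright ones, where a single young array stands against 4 old ones and is assumed to vary like them, 0 to 2 without single arrays (2 without old replicate 5) and 0 otherwise. Maoa passed among the dim arrays alone (3.32, limma adjusted p = 0.0442), the 1 call among the 37 other genes.

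Directions were less stable. Sod3 differed by -0.20 under median centring, -0.21 with array weights and -0.33 among the dim arrays, and by -0.27 to 0.24 without single arrays. Cat was at 0.85 among the dim arrays, at 0.55 when the model held the spike-in class, and at -0.21 to 0.44 without single arrays. It gave -0.090 without the arrays of high GAPDH ratio, -0.12 under quantile normalization and -0.26 under median centring. These 2 scalings moved the median of all probe sets to -0.12 and -0.29, and relative to it Cat was at 0.00079 and 0.036, and Sod3 at 0.23 and 0.097. Mafk was at -0.14 under median centring. Gpx1 gave 0.27 (X12367cds_s_at) and 0.011 (X07365_s_at) once the spike-in class was a block, 0.17 for the first among the dim arrays, and 0.43 and 0.33 among the bright. The block gave Nqo1 -0.054, Alas1 0.070 and Nnt 0.28. Among the dim arrays Nqo1 was at -0.40, Prdx2 at 0.23, Idh2 at 0.12 and Nnt at 0.40, and among the bright ones Sod1 (M21060_s_at) at 0.26, Gclc at -1.03, Alas1 at 0.43, Mafk at -0.14 and Nnt at 0.069. Gclc was at -0.062 with the floor at the 10th percentile. Idh2 was at 0.035 and Alas1 at 0.011 under quantile normalization, and Idh2 at 0.10 with array weights. Without single arrays Hmox1 ran from -0.13 to 0.64 (rc_AI179610_at) and from -0.57 to 0.017 (J02722cds_at), Gclc from -0.050 to 0.58, Idh2 from -0.27 to 0.076, Alas1 from -0.18 to 0.069, Mafk from -0.089 to 0.33 and Nnt from -0.50 to 0.020. The causes were not tested.

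The Gpx1 difference between spike-in classes kept its call in 17 of 21 alternatives, at -1.92 to -1.46, and lost it without trend (limma adjusted p = 0.0780) as without the 3 arrays named. Replicate numbers did not pair the arrays: the correlation of same-numbered arrays ran from -0.25 to 0.25 over 5 pairs. A replicate block made 0 calls, as did the fit without it, and gave Idh2 0.076, Alas1 0.039 and Nnt 0.020, and 2 of 10 arrays correlated best with the array of their own number.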
